A study of Mus musculus with 4 samples.

Results

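Small nucleolar RNAs (snoRNAs) with a numbered symbol were compared between control and lactate-supplemented mouse ESCs, with the C/D box class (symbols starting with Snord and a digit) set beside the H/ACA box class (symbols starting with Snora and a digit). The symbols selected 141 of the 55335 genes in the table of counts, 99 of the C/D box class and 42 of the H/ACA box class. Snord80, Snora43 and Snora16a each had 2 overlapping identifiers with the same reads in every library, and each was counted as 1 locus. This left 138 loci, 98 of the C/D box class and 40 of the H/ACA box class. The cells were AB2.2 mouse ESCs, an established embryonic stem cell line, grown on mouse embryonic fibroblast feeders in medium with serum, LIF and the inhibitors CHIR99021 and PD0325901. RNA was sequenced in 2 control libraries and in 2 libraries made after 24 h with 50 mM lactate in the medium. Total RNA was extracted and libraries were made with a TruSeq RNA kit, and whether polyadenylated RNA was selected is not given in the sources used here. The labels do not say whether the 2 libraries of a group came from separate cultures, so p-values measure only the spread between these libraries. The 4 libraries held 18067562 and 19077885 (control) and 18542554 and 18948861 (lactate) reads on genes.

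Both classes work as guides inside ribonucleoprotein particles. C/D box snoRNAs pair with a target RNA and direct fibrillarin to methylate a ribose, and H/ACA box snoRNAs direct dyskerin to turn a uridine into pseudouridine, mostly in ribosomal RNA. In mammals most of them are cut from introns of a host gene during splicing, and many hosts encode ribosomal proteins or belong to the Snhg group of noncoding transcripts, known mainly for the snoRNAs in their introns. Mature box snoRNAs have no poly(A) tail, and reads counted at a snoRNA gene can come from the mature RNA, from a host precursor or from a host exon that overlaps it. These sources cannot be told apart in the counts. In these bulk libraries, fewer cells of a type and less RNA per cell cannot be told apart either.

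The sequences of the loci the results turn on are given from the GENCODE M21 transcripts on GRCm38, 5′ to 3′ in the sense of the gene. They show the box elements that define each class. Capitals mark TGATGA within the first 20 bases (the C box) and CTGA within the last 20 bases (the D box). Snord80 (chr1:161037601-161037681), Snord78 (chr1:161036984-161037049) and Snord47 (chr1:161038082-161038158) lie on the plus strand in Gas5. Snord14c (chr9:40803583-40803668), Snord14d (chr9:40803995-40804080) and Snord14e (chr9:40804748-40804837) lie on the plus strand in Hspa8. Snord49a (chr11:62603450-62603521) and Snord49b (chr11:62603079-62603150) lie on the plus strand in 2410006H16Rik, and Snord22 (chr19:8725866-8725991) on the plus strand in Snhg1.
Snord80: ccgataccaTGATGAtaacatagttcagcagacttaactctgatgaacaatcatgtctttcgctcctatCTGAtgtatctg
Snord78: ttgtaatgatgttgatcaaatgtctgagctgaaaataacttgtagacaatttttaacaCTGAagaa
Snord47: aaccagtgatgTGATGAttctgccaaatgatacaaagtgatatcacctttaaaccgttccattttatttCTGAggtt
Snord14c: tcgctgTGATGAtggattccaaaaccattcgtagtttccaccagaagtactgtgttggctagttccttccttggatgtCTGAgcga
Snord14d: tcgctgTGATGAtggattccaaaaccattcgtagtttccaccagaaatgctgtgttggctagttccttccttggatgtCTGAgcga
Snord14e: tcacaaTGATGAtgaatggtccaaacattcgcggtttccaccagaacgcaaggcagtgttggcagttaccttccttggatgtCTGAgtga
Snord49a: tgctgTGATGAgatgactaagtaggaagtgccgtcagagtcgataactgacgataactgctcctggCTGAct
Snord49b: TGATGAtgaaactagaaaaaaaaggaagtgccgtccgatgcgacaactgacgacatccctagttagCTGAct
Snord22: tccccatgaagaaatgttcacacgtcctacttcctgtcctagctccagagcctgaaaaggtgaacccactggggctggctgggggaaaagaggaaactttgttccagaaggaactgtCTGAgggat

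For the H/ACA box class, capitals mark ACA within the last 8 bases. Snora24 (chr3:123507937-123508066, minus strand, in Snhg8), Snora73b (chr4:132352322-132352526, minus strand, in Rcc1) and Snora15 (chr5:129794546-129794676, plus strand, in Cct6a) are shown. They are, in that order, a locus more than 2-fold lower but not called, a long abundant locus and the locus with most reads.
Snora24: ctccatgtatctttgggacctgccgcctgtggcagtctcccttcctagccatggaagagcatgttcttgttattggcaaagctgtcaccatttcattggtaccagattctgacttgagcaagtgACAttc
Snora73b: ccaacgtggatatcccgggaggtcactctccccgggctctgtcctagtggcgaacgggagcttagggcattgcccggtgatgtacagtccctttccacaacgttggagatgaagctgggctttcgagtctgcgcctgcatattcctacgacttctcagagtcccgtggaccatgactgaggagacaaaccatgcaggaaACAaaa
Snora15: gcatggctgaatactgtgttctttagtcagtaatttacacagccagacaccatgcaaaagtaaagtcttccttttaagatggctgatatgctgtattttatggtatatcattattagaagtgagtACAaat

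The box elements followed the classes given by the symbols. TGATGA was found in the first 20 bases of 69 of 98 C/D box sequences (70.4%), CTGA in the last 20 bases of 96 (98.0%) and both in 67 (68.4%). None of the 40 H/ACA box sequences held both, whereas 38 (95%) held ACA in the last 8 bases. Among 4146 genes of the miRNA, snRNA and misc_RNA biotypes, read on the sense strand in the same windows, 0.0241% held both C/D elements and 11.5% held the ACA. C/D box genes were 64 to 238 bases long (median 84.5) and H/ACA box genes 121 to 205 bases (median 132). Snord78 and Snord22 did not hold these letters of the C box in that window. The Snord14c and Snord14d sequences were 97.7% identical, Snora73a and Snora73b 96.6% and Snord50a and Snord50b 98.6% identical, so reads may be split between these copies.

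The named snoRNAs took a small share of every library. They held 3542 and 4923 reads in the control libraries and 2338 and 3301 reads in the lactate libraries, which was 0.0196% and 0.0258% against 0.0126% and 0.0174% of the reads on genes. RSEM, whose fragment length averaged between 309.2 and 329.5 bases, gave no expected count to any member in 3 libraries and an expected count of at most 1 to each of 4 members in lactate library 2, so only the raw counts were used. No read was counted on 21 C/D box and 2 H/ACA box loci. Those 21 include the 17 Snord116 copies within Snhg14, Snord118 (U8) and Snord13 (U13), the last 2 of which are transcribed from their own promoters.

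The summed level of each class was lower in the lactate libraries. C/D box genes summed to 125.4 and 151.6 CPM (counts scaled to library size and TMM factor) in the control libraries and to 73.3 and 90.2 CPM in the lactate libraries, with means of 138.5 ± 18.5 and 81.7 ± 12.0 CPM (SD, n = 2). The lactate mean was 59.0% of the control mean (log2 ratio −0.76). H/ACA box genes summed to 79.4 and 107.8 CPM in control and to 52.5 and 77.1 CPM in lactate, with means of 93.6 ± 20.1 and 64.8 ± 17.4 CPM (SD, n = 2), a lactate mean at 69.2% of control (log2 ratio −0.53). The H/ACA box ratio depended on single libraries, at −0.30 without control library 2, −0.31 without lactate library 1 and −0.84 without lactate library 2. The groups did not overlap in either class, but the H/ACA box groups were separated only by 77.1 against 79.4 CPM. In both groups and both classes library 2 was above library 1. The share of mitochondrial reads also differed between the numbers rather than the groups, at 5.48% and 2.43% in control and 5.72% and 2.82% in lactate, and its part in these levels was not tested.

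**Figure D1:**
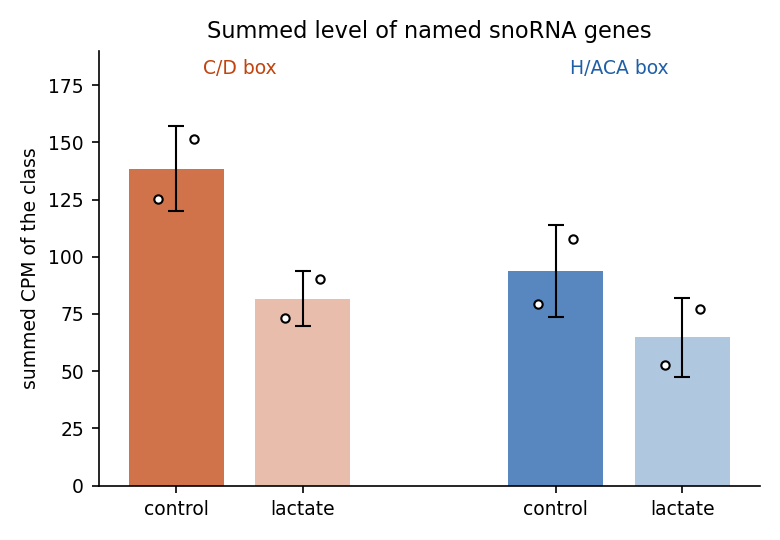
Summed level of each class in CPM (y axis) in control and lactate libraries. Bars are means, error bars SDs and circles the 2 libraries of a group. Both lactate circles lie below both control circles in each class, with a wide gap for C/D box genes (90.2 against 125.4 CPM) and a narrow one for H/ACA box genes (77.1 against 79.4 CPM).

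Of all loci with a read in any library, and with no filter on low counts, 64 of 77 C/D box loci (83.1%, median log2 fold change −0.69) and 33 of 38 H/ACA box loci (86.8%, median −0.66) were lower with lactate. Over all 32923 genes with a read the share lower was 49.9%. The difference between the classes was not tested.

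Under edgeR's standard filter on low counts, 54 C/D box and 32 H/ACA box loci were tested, and 23 and 6 loci with a read were left out. Of those tested, 47 C/D box loci were lower and 7 higher, with a median log2 fold change of −0.67 (quartiles −1.06 and −0.35, range −2.08 to 0.95). Of the H/ACA box loci, 28 were lower and 4 higher, with a median of −0.62 (quartiles −0.93 and −0.16, range −1.43 to 0.26). The median over all 18661 genes tested was 0.01. More than 2-fold lower were 15 C/D box and 8 H/ACA box loci, and none was more than 2-fold higher. Over all 18661 genes tested, 406 were more than 2-fold lower and 806 more than 2-fold higher. Some loci can pass the filter through the control libraries alone, and 3 C/D box and 1 H/ACA box loci had both lactate libraries under the filter's 0.533 CPM, against 1 and 0 with both control libraries under it.

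No single locus was called in either class or direction, where a call needs an adjusted p-value under 0.05 from edgeR's quasi-likelihood test and over 2-fold difference. Over all genes 0.348% were called lower and 0.552% higher. The smallest adjusted p-values were 0.0520 for a C/D box and 0.112 for an H/ACA box locus. At an unadjusted p-value under 0.05, 21 C/D box loci (38.9%) and 9 H/ACA box loci (28.1%) were lower, against 11.4% of all genes, and none was higher, against 11.7% of all genes. The lower H/ACA box count moved to 5 with DESeq2, 15 without the filter, 5 without control library 2 and 15 without lactate library 2, and the C/D box count to 14 with DESeq2 and 33 without the filter. Both lactate libraries lay below both control libraries for 36 of the 54 C/D box loci (66.7%) and 16 of the 32 H/ACA box loci (50%), against 25.9% of all genes. The opposite order was seen for 2 C/D box loci and 1 H/ACA box locus, against 27.0% of all genes. With 2 libraries a group, an exact permutation test of 1 locus cannot give a two-sided p-value below 0.333.

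The count of loci called depended on the setting. DESeq2 called 4 C/D box loci lower (Snord100, Snord49a, Snord78 and Snord80, of 32 with an adjusted p-value) and 0 of 20 H/ACA box loci, against 1.00% of all genes. edgeR without the filter called 13 C/D box and 3 H/ACA box loci lower, against 0.987% of all genes. Leaving out a library also moved the counts. Without control library 1, 2 C/D box and 0 H/ACA box loci were called lower, and without control library 2, 1 and 1. Without lactate library 1 the counts were 7 and 2, and without lactate library 2 they were 11 and 5. The calls over all genes moved as well, with 39, 148, 270 and 367 genes lower in the same order against 65 with all libraries. The lone library of a group is assumed there to vary like the other group. None of these settings called a locus higher.

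**Figure D2:**
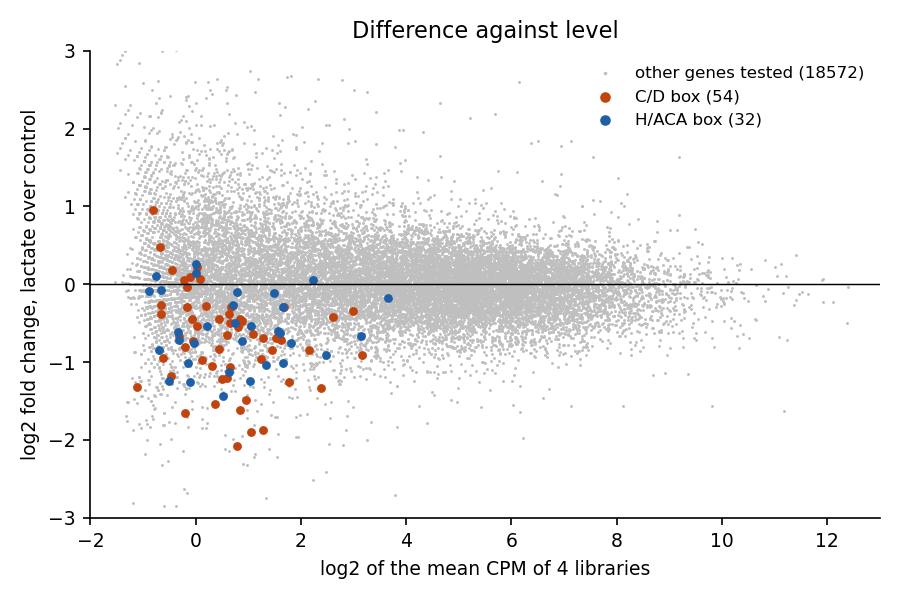
Log2 fold change (lactate over control, y axis) against the log2 of the mean CPM (x axis) for the 54 C/D box and 32 H/ACA box loci tested and, in grey, the other genes tested (24 lie outside the axes). Most snoRNA loci of both classes lie below 0 at low to middle levels, where the grey points spread to both sides.

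**Figure D3:**
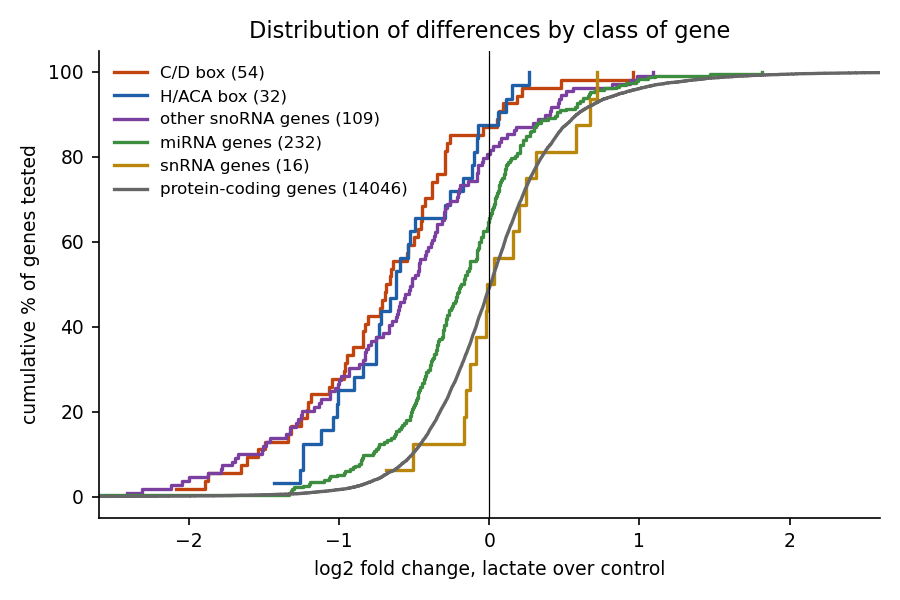
Cumulative percent of the genes tested (y axis) with at most a given log2 fold change (x axis), for each class of gene with its number in brackets. The C/D box, H/ACA box and other snoRNA curves lie to the left of the protein-coding curve, the miRNA curve lies between them, and the snRNA curve crosses 0 at its middle.

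The classes were also described by level, with no test. Of the 27 C/D box loci above the class's median level all 27 were lower, with a median log2 fold change of −0.71, and of the 27 at or below it 20 were lower, with a median of −0.45. H/ACA box loci showed 15 of 16 lower (median −0.61) above the median level and 13 of 16 (median −0.67) at or below it. Across the tested loci, which share the 4 libraries, log2 fold change and log2 level had a Pearson r of −0.28 for C/D box and −0.0068 for H/ACA box loci. Per length, the median level was 17.9 CPM per kb for C/D box and 12.3 CPM per kb for H/ACA box loci, with Snord96a (97.9 CPM per kb) and Snora15 (96.4 CPM per kb) the highest of each class.

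Snord80, Snord78 and Snord14d were the C/D box loci with the smallest p-values. Snord80, which guides ribose methylation of 28S ribosomal RNA, had 53 and 48 reads in control and 15 and 10 in lactate. Its level was 4.24-fold lower (log2 fold change −2.08, SE 0.33, adjusted p = 0.0520). Snord78, also a guide for 28S ribosomal RNA, had 122 and 151 reads in control and 48 and 66 in lactate (−1.34, SE 0.23, adjusted p = 0.0540). For Snord14d the reads were 44 and 55 against 15 and 19 (−1.61, SE 0.28, adjusted p = 0.0543). In all of these every lactate library was below every control library.

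Snord49a and Snord49b, neighbours with 69.2% identical sequences, showed the same order. Snord49a had 48 and 92 reads in control and 17 and 23 in lactate (log2 fold change −1.87, SE 0.37, adjusted p = 0.0635). Snord49b had 47 and 57 against 13 and 26 (−1.49, SE 0.34, adjusted p = 0.0799). Snord100, in Rps12, had 39 and 82 against 13 and 21 reads (−1.89, SE 0.42, adjusted p = 0.0747). It was named after its values were seen, as were Snord14c, Snord14e, Snord49b and Snord65.

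The C/D box loci with the highest levels had log2 fold changes below 0 of varying size. Snord22, with the most reads of the class, had 189 and 234 in control and 121 and 116 in lactate (log2 fold change −0.91, SE 0.19, adjusted p = 0.0671). Snord16a had 90 and 119 against 59 and 64 reads (−0.84, SE 0.22, adjusted p = 0.1005), and Snord12 had 61 and 116 against 29 and 49 (−1.25, SE 0.37, adjusted p = 0.125). These 3 groups did not overlap. Snord2 had 92 and 166 reads against 100 and 101 (−0.43, SE 0.28), Snord96a 110 and 216 against 90 and 180 (−0.35, SE 0.39) and Snord52 52 and 77 against 41 and 70 (−0.30, SE 0.31). For these 3 the groups overlapped, and the 2 control libraries of Snord96a lay farther apart than the group means. Its log2 fold change was 0.13 without control library 2 and 0.011 without lactate library 1.

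Of the C/D box loci that were higher with lactate, the 4 with the smallest p-values were Snord7, Snord71, Snord50a and Snord89. Snord7 had 9 and 5 reads in control and 13 and 16 in lactate (log2 fold change 0.95, SE 0.45, adjusted p = 0.263), and Snord71 had 8 and 11 against 12 and 16 (0.48, SE 0.38, adjusted p = 0.508). Both had groups that did not overlap, at under 20 reads a library. Snord50a (0.22, SE 0.38) and Snord89 (0.19, SE 0.38) had overlapping groups and changed sign without 1 library. Snord50b, which differs from Snord50a at 1 of 72 aligned bases, had 28 and 39 reads in control and 16 and 29 in lactate (−0.65, SE 0.35, adjusted p = 0.321), and reads may be split between the copies. It was named after its values were seen.

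Among H/ACA box loci, Snora73b, Snora24, Snora68 and Snora21 had the smallest p-values of those lower with lactate. Snora73b, a copy of the U17 snoRNA that takes part in processing of the ribosomal RNA precursor, had 63 and 92 reads in control and 33 and 48 in lactate (log2 fold change −1.01, SE 0.28, adjusted p = 0.112). Snora24 had 20 and 28 against 8 and 13 reads (−1.26, SE 0.37, adjusted p = 0.122). Snora68 had 71 and 89 against 46 and 54 (−0.75, SE 0.22, adjusted p = 0.127), and Snora21 had 17 and 19 against 6 and 10 (−1.24, SE 0.38, adjusted p = 0.133). The groups of all 4 were apart.

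The most abundant H/ACA box locus differed little between the groups. Snora15 had 144 and 350 reads in control and 152 and 307 in lactate (log2 fold change −0.17, SE 0.44, adjusted p = 0.858), so that it differed more between the libraries of a group than between the groups. Snora64 had the same shape, at 57 and 111 against 62 and 122 reads (0.06, SE 0.39), as had Snora9 at 43 and 85 against 37 and 73 (−0.29, SE 0.40). Snora65 had 142 and 254 against 86 and 178 reads (−0.66, SE 0.37, adjusted p = 0.346), with overlapping groups. Snora81 (145 and 117 against 92 and 56 reads, −0.90, SE 0.32, adjusted p = 0.167) and Snora28 (63 and 70 against 51 and 40 reads, −0.62, SE 0.25, adjusted p = 0.208) had groups that did not overlap. The remaining loci with values above 0 were Snora34 (0.26, SE 0.30), Snora62 (0.15, SE 0.51) and Snora57 (0.11, SE 0.58), each with an adjusted p of 0.662 or more. Snora15, Snora64, Snora9, Snora62 and Snora57 changed sign when single libraries were left out.

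**Figure D4:**
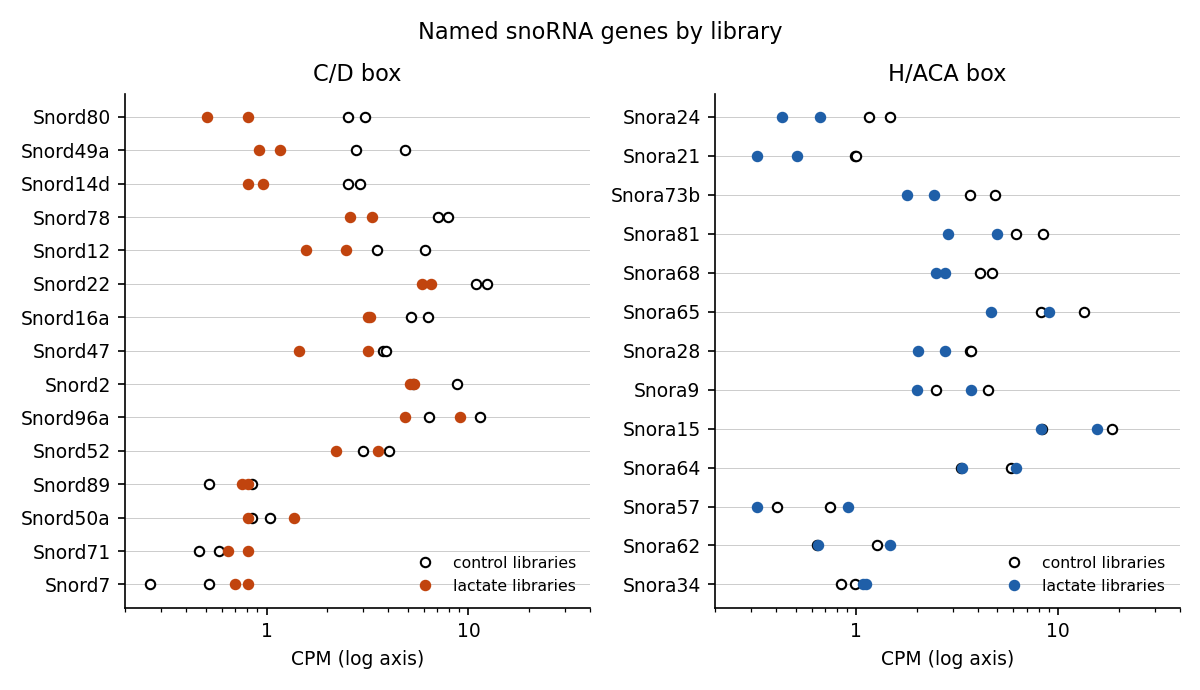
CPM on a log axis (x axis) of the named C/D box (left) and H/ACA box (right) loci in each library, ordered by log2 fold change. Open circles are control and filled circles lactate libraries. The filled circles lie left of the open ones from Snord80 down to Snord47 and from Snora24 down to Snora68, and mix with them for loci such as Snord96a, Snora15 and Snora64.

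Host genes were assigned by position as the gene on the same strand that spans the snoRNA gene. Only annotated genes whose identifier matched the table of counts in version as well could be hosts. A locus given no host may therefore lie in a gene left out of the search. Of the C/D box loci 22 lay in ribosomal protein genes, 35 in other protein-coding genes, 37 in noncoding hosts and 4 in no host, and of the H/ACA box loci 11, 18, 7 and 4. Tested C/D box loci were lower in 17 of 17 cases in ribosomal protein genes (median log2 fold change −0.81), in 16 of 20 in other protein-coding genes (−0.38) and in 13 of 16 in noncoding hosts (−0.69). For H/ACA box loci the counts were 8 of 10 (−0.71), 11 of 12 (−0.67) and 6 of 6 (−0.67). The last of these groups includes Snora15 in Cct6a, which encodes a chaperonin subunit but has the biotype processed transcript in this annotation. The 4 tested H/ACA box loci for which no host was found had a median of −0.11. Snord12, the only tested C/D box locus for which none was found, was at −1.25. Loci inside an annotated exon of the host, whose reads can be exon reads, had medians of −0.69 (C/D box, 27 loci) and −0.73 (H/ACA box, 16 loci), and loci inside introns had medians of −0.66 (25 loci) and −0.54 (9 loci). The H/ACA box loci inside introns include Snora73b, which also overlaps an exon of Snhg3, so its reads can be exon reads too.

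As a group the hosts lay near 0. Over the 58 tested hosts of tested members, 31 were lower and 27 higher, with a median log2 fold change of −0.02. Of 81 members with a tested host, 69 were lower than their host (45 of 53 C/D box and 24 of 28 H/ACA box loci), with a median of −0.66 for the members. Of the 38 members whose host had a value above 0, 32 were lower with lactate. Across the 81 pairs the member and host values had a Pearson r of 0.40 and a Spearman rho of 0.30, and without the members in Gas5 and Hspa8 these were 0.12 and 0.16. Pairs from 1 host share the host's value and all share the 4 libraries, so the coefficients are descriptions.

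**Figure D5:**
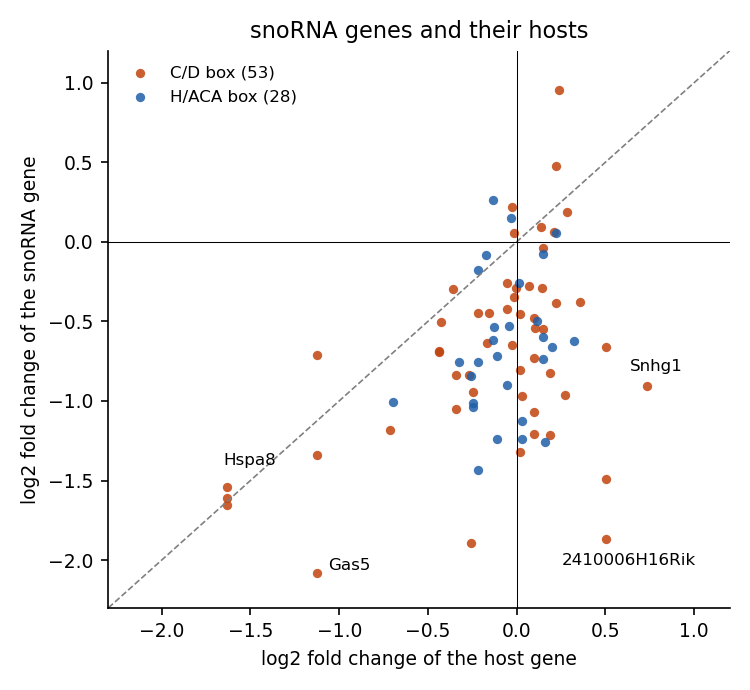
Log2 fold change of each tested snoRNA locus (y axis) against that of its host gene (x axis), with the dashed line of equal change. Of the 81 points 69 lie below the line, and the hosts mostly lie near 0. Labels name the hosts Gas5, Hspa8, Snhg1 and 2410006H16Rik.

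Only 2 hosts, Gas5 and Hspa8, were called of the 58, and both fell, where 0.348% of all genes were called lower. Gas5, a noncoding transcript that carries many C/D box snoRNAs in its introns, had 2014 and 2232 reads in control and 857 and 1209 in lactate (log2 fold change −1.12, SE 0.17, adjusted p = 0.0494). That call was lost with upper-quartile factors (adjusted p = 0.0524), with library totals alone (0.0575), with at least 10 counts in every library (0.0509) and without control library 1 (0.0825), and without lactate library 1 the change was under 2-fold (−0.96). Hspa8, which encodes the constitutive HSC70 chaperone, had 58515 and 69034 reads against 22243 and 21097 (−1.63, SE 0.16, adjusted p = 0.0320). Without the 6 members of Gas5 and Hspa8, 41 of 48 C/D box loci were lower, with a median of −0.59 and 16 at an unadjusted p-value under 0.05.

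The members of these hosts differed in how they stood to the host. Snord14c, Snord14d and Snord14e were within the host's range, at log2 fold changes of −1.54 (SE 0.38), −1.61 (SE 0.28) and −1.65 (SE 0.34) beside −1.63 for Hspa8. All 3 overlap an annotated exon of Hspa8. Within Gas5, whose annotated exons also cover all 3 members, Snord80 at −2.08 was below the host, Snord78 at −1.34 close to it and Snord47 at −0.71 (SE 0.37) above it. Snord47 had 65 and 74 reads in control and 27 and 63 in lactate, so lactate library 2 was near the control level.

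The hosts Snhg1 and 2410006H16Rik had values above 0 while their members were lower. Snhg1 had 1318 and 2091 reads in control and 2136 and 3861 in lactate (log2 fold change 0.74, SE 0.29, adjusted p = 0.202), beside −0.91 for Snord22. Per 1000 reads of Snhg1, Snord22 had 143.4 and 111.9 reads in control and 56.6 and 30.0 in lactate. The noncoding host 2410006H16Rik had 601 and 981 reads against 887 and 1481 (0.51, SE 0.28, adjusted p = 0.328), beside −1.87 for Snord49a, −1.49 for Snord49b and −0.66 (SE 0.57) for Snord65, which lie in its introns. Neither host was called. The ribosomal protein gene Rps12 was at −0.26 (SE 0.31), beside −1.89 for its member Snord100.

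Snora73a (log2 fold change −1.04, SE 0.35) and Snora73b (−1.01) lie in 2 overlapping genes. By the rule for hosts they were set beside Rcc1, at −0.25, and counted as lower than their host. The noncoding Snhg3, an exon of which also overlaps them, had 272 and 339 reads in control and 157 and 167 in lactate. The log2 fold change of Snhg3 was −0.99 (SE 0.17, adjusted p = 0.0553), close to both members, and it was −0.16 with the RSEM expected counts.

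Snhg12 and Snhg14 were the hosts with at least 5 member identifiers. Snhg12 had 455 and 577 reads in control and 477 and 734 in lactate (log2 fold change 0.15, SE 0.21), and its members included both classes. Snord99 had 34 and 42 against 20 and 35 reads (−0.55, SE 0.32), Snora44 50 and 33 against 24 and 29 (−0.73, SE 0.34), Snora61 59 and 70 against 44 and 46 (−0.60, SE 0.22) and Snora16a 5 and 19 against 6 and 18 (−0.07, SE 0.69). In CPM the groups did not overlap for Snord99, Snora44 and Snora61, and they overlapped for Snora16a. Snhg14, the imprinted host of the Snord116 cluster, had 951 and 631 reads against 1205 and 773, with its 17 Snord116 copies (4 distinct sequences of 94 bases) at 0 reads in every library. Reads that fit several copies equally may have been left out of the counts, so these zeros need not mean absence of the RNA.

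None of the 19 genes for snoRNP proteins was called, where 0.348% of all genes were called lower and 0.552% higher. Of the 4 C/D core genes, Fbl (the methyltransferase fibrillarin) had a log2 fold change of −0.02 (SE 0.15), Nop56 0.14 (SE 0.21), Nop58 0.35 (SE 0.14, unadjusted p = 0.0448) and Snu13 −0.24 (SE 0.13). All 4 H/ACA core genes were lower, with a median of −0.50, at −0.41 (SE 0.15) for Dkc1 (the pseudouridine synthase dyskerin), −0.04 (SE 0.23) for Gar1, −0.60 (SE 0.14, adjusted p = 0.0806) for Nhp2 and −0.59 (SE 0.32) for Nop10. The signs of Fbl, Nop56 and Gar1 changed under at least 1 alternative. Dkc1 and Nhp2 were lower at an unadjusted p-value under 0.05 from edgeR (0.0336 and 0.00442), and neither was called. Nhp2 had 2774 and 2998 reads in control and 2098 and 1905 in lactate. Of 11 assembly genes 10 were lower, with a median of −0.31, and 4 were lower at an unadjusted p-value under 0.05, against 49.0% of all genes lower and 11.4% lower at that p-value. The 4 were Ruvbl1 (−0.66, SE 0.23) and Ruvbl2 (−0.57, SE 0.15), the ATPases of the R2TP complex, the snoRNP assembly factor Nufip1 (−0.49, SE 0.13) and Nolc1 (−0.51, SE 0.20), a nucleolar phosphoprotein. The others were Rpap3 (−0.31), Pih1d1 (−0.17), Znhit3 (−0.33), Znhit6 (0.30), Naf1 (−0.13), Shq1 (−0.06) and Tcof1 (−0.02). Of the 10 counted as lower, Naf1, Shq1 and Tcof1 changed sign under at least 1 alternative.

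Genes annotated as snoRNAs under other symbols were mostly lower as well. Of 109 tested, 88 were lower, with a median log2 fold change of −0.52, 34 lower at an unadjusted p-value under 0.05 and 8 called lower. Without the filter on low counts, 214 of 342 were lower (62.6%), with a median of −0.31. Over all genes tested the shares were 49.0% lower, 11.4% lower at that p-value and 0.348% called lower. Gm26224, Gm22357, Gm22489 and Gm23212 lie in Gas5. Gm26224 had 144 and 196 reads in control and 29 and 38 in lactate (−2.41, adjusted p = 0.0320). The others in Gas5 ranged from −2.05 to −1.69. Gm24452 and Gm25894 lie in Snhg1, which was at 0.74 and not called. Gm24452 had 178 and 237 reads against 58 and 61 (−1.87, adjusted p = 0.0367), and Gm25894 had 85 and 76 against 25 and 27 (−1.71, adjusted p = 0.0474). Gm22077 lies in Rpl3 (−1.67), and no host was found for Gm25878 (−2.31). The calls of Gm22489, Gm25894, Gm22077 and Gm25878 were lost under at least 1 alternative.

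Other classes of RNA gave the following medians over the genes tested. The median log2 fold change was 0.01 for 16 snRNA genes (8 lower), −0.18 for 232 miRNA genes (151 lower), −0.14 for 3 scaRNA genes (3 lower), 0.17 for 33 misc_RNA genes (14 lower) and 0.17 for 56 genes annotated as sense intronic (17 lower). Mir5121 overlaps Snord33 on the same strand, and overlapping genes can share reads. The part of such overlaps in the miRNA values was not tested. Protein-coding genes had a median of 0.01 and lincRNA genes of 0.27. Without the filter on low counts the medians were −0.13 for scaRNA, −0.12 for miRNA, 0.16 for snRNA, 0.06 for sense intronic, 0.38 for misc_RNA and 0.48 for lincRNA genes, against the −0.31 of the snoRNA genes with other symbols. The nuclear RNAs Malat1 and Neat1 stood at 0.23 (SE 0.14) and 0.69 (SE 0.32), and neither was called. The other RNAs of that list had few or no reads. Rn7sk had 5 and 9 reads in control and 4 and 1 in lactate, Terc had 0 and 5 against 2 and 3, and Rmrp, Rpph1, Rn7s1 and Rn7s2 had 0 or 1 read in each library. The U3 genes (Rnu3a and Rnu3b1 to Rnu3b4), C/D box snoRNAs outside the numbered symbols, also had 0 or 1 read in each library. None of these was tested.

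Markers of both cell types of the culture were present in all libraries. The 10 stem cell markers, such as Pou5f1 and Nanog, were all tested, summed to 5395 and 5829 CPM in control and 5761 and 6561 CPM in lactate, had a median log2 fold change of 0.05, and were led by Tfcp2l1. They went both ways, with 4 lower and 6 higher, and at an unadjusted p-value under 0.05 Utf1 was lower and Sox2, Zfp42 and Klf4 were higher. The 12 feeder fibroblast markers, all tested and led by Col1a1, summed to 682.2 and 921.9 CPM in control and 692.3 and 741.9 CPM in lactate, with 6 lower and 6 higher and a median of 0.03, and at that p-value Col3a1 was lower and Pdgfrb higher. No marker of either list was called, and none was at 0 in any library. The part of the feeder cells in the snoRNA levels was not tested.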

How the data were processed

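RNA-seq data of 4 libraries were used as deposited. The authors trimmed reads with cutadapt 1.16, mapped them with STAR to mm10 and deposited raw counts of reads on exons of GENCODE release M23 genes. The table also holds 1153 families of transposable elements, which were not used. For each library the authors also deposited RSEM expected counts, TPM and FPKM. The expected counts were rounded for an alternative test, and TPM and FPKM were not used, since RSEM gave almost no reads to these genes. The authors' counting is described as STAR GeneCounts, but overlapping genes with the same reads show that it gave reads to more than 1 gene. Whether strand was used is not given in the sources used here, so a snoRNA gene and an antisense gene may share reads.

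Symbols came from the RSEM tables. Positions, biotypes, hosts and sequences came from GENCODE M21 on GRCm38, which holds 55154 of the gene identifiers when their versions are ignored. With the same version it holds 54587, and only these could be hosts or were counted in a biotype. A host was the same-strand gene spanning the snoRNA gene and not itself a small RNA gene, with protein-coding genes first and then the shortest span. For Snora73a and Snora73b this gave Rcc1, although an exon of Snhg3 also overlaps. Snord43 has the biotype miRNA in that annotation.

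Counts were tested in R 4.3.3 with edgeR 4.0.16 (legacy quasi-likelihood test, TMM factors of 0.959, 0.996, 1.004 and 1.04, filterByExpr), with Benjamini-Hochberg adjustment over 18661 genes. Lactate was compared with control without a term for the replicates. Calls needed an adjusted p-value under 0.05 together with a difference over 2-fold. The standard error is the size of the log2 fold change divided by the square root of F. The steps were tested on simulated counts. The alternatives were DESeq2 1.42.0, upper-quartile or RLE factors, scaling by library totals alone, leaving out the filter, requiring 10 counts or more per library, a replicate block, the RSEM expected counts, the adjusted p-value alone and each library left out. Leaving out the Gas5 and Hspa8 members, and counting loci at an unadjusted p-value, were added after the data were seen.

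Named are, in each class, the 8 loci with the highest mean CPM, the 4 tested loci with the smallest p-value in each direction, Snord118 and Snord13, and members of hosts with at least 5 member identifiers, with the snoRNP protein lists. Values are given only for the hosts the text discusses. The members, lists and rules were chosen with earlier results of these data known. Replicate libraries differed beyond counting noise, with a chi-square per degree of freedom of 22.3 and 21.6 over genes and of 3.79 and 3.37 over the named snoRNA loci with a read. A median locus tested held 109 (C/D box) or 125 (H/ACA box) reads over the 4 libraries, and the smallest 34.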

Additional observations from a re-analysis of the deposited data

How the results depend on the processing

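The medians and summed levels of both classes stayed below 0 under every alternative run. Leaving out each library gave median log2 fold changes of −0.91 to −0.65 for C/D box and −0.83 to −0.47 for H/ACA box loci, and log2 ratios of the summed levels of −0.92 to −0.62 and −0.84 to −0.30. With library totals alone the medians were −0.61 and −0.55. Counts of calls were less stable. Against 0 called lower in either class, DESeq2 gave 4 C/D box loci, no filter 13 and 3 (C/D box and H/ACA box), the replicate block 15 and 8, and leaving out each library 1 to 11 and 0 to 5. At an unadjusted p-value under 0.05, no filter gave 33 C/D box loci, and H/ACA box loci numbered 5 (DESeq2), 15 (no filter), 16 (replicate block) and 5 to 15 (each library left out), against 9. Over all genes, called lower (65) and higher (103) became 162 and 213 with DESeq2, 325 and 482 without the filter, 395 and 761 with the replicate block, 17 and 27 with the RSEM expected counts and 39 to 367 and 45 to 502 with each library left out, and 40 were lower with library totals alone. The causes were not tested. RSEM expected counts left no member to test. Same-numbered libraries deviated together (r = 0.56), but with 2 pairs this does not establish pairing.

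Values near 0 changed sign. Fbl was 0.017 with upper-quartile factors, 0.050 with library totals alone and 0.033 with RSEM expected counts, and Tcof1 was 0.016 and 0.050 with the first 2 of these. With library totals alone Gar1 was 0.031 and Shq1 0.012. Over the libraries left out, ranges that crossed 0 were −0.88 to 0.13 (Snord96a), −0.22 to 0.51 (Snord50a), −0.12 to 0.58 (Snord89), −0.72 to 0.51 (Snora15), −0.46 to 0.53 (Snora64), −0.82 to 0.19 (Snora9), −0.57 to 0.73 (Snora62), −0.83 to 0.63 (Snora57), −1.01 to 1.09 (Snora16a), −0.15 to 0.36 (Snhg12), −0.77 to 0.086 (Rps12), −0.27 to 0.57 (Rpl3), −0.61 to 0.032 (Rcc1), −0.15 to 0.11 (Fbl), −0.14 to 0.35 (Nop56), −0.38 to 0.21 (Gar1), −0.60 to 0.30 (Naf1), −0.30 to 0.12 (Shq1) and −0.11 to 0.048 (Tcof1). Of 953 comparisons over 78 named genes, 842 kept direction and side of the threshold.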
